A study of Mus musculus with 4 samples.

Results

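The antibody genes described here are the constant regions of the heavy chains of IgM (Ighm), IgD (Ighd), IgA (Igha) and the IgG subclasses (Ighg1, Ighg2b, Ighg2c and Ighg3), the constant region of the kappa light chain (Igkc), and 2 genes of antibody secretion, Jchain and Mzb1. They were chosen by gene symbol, with earlier results of these data known. All 10 were found among the 21499 gene symbols of the deposited tables. RNA was sequenced from lung of 2 Lf knockout mice (KO, Lf-/-, lacking lactoferrin) and 2 wild-type mice (WT), with 1 library per mouse out of 10 mice per genotype in the study. All 4 mice are labelled as C57B/L6 males that were 8 weeks old when 200000 B16-F10 melanoma cells were injected into the tail vein, and all were killed at 3 weeks. Per the labels, the lung pieces came from beside the colonies and held no tumour. How the Lf allele was made and whether the mice were littermates is not given in the sources used here. The question is whether the antibody transcripts of the lung around metastases differ when lactoferrin, which binds iron and is stored by neutrophils and secreted onto mucosa, is missing.

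A B cell first makes IgM and IgD from a single pre-mRNA that runs through the Ighm and Ighd exons, and displays both on its surface with the signalling chains Cd79a and Cd79b. After stimulation it can switch by DNA recombination to a constant region further downstream, and it can become an antibody-secreting cell, which makes far more heavy chain, kappa or lambda light chain and J chain transcript and turns off Ighd. The J chain links IgM into pentamers and IgA into dimers, which the receptor Pigr carries across mucosal epithelium, as in the airways. Mzb1 is an endoplasmic reticulum protein that aids antibody assembly in B cells and plasma cells.

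The heavy chain genes lie together on mouse chromosome 12 (GRCm38, GENCODE vM21, minus strand). Ighm is at 113418558 to 113422730 and Ighd starts 6.41 kb downstream of the start of Ighm. Ighg3, Ighg1, Ighg2b, Ighg2c and Igha follow at 61.5, 92.2, 115, 134 and 162 kb. Igkc is on chromosome 6 (70726435 to 70726966, plus strand) and Jchain on chromosome 5 (88519809 to 88527891, minus strand). The last 63 coding bases of the secreted forms, the stop codon included, are shown because they separate the chains that bind the J chain from those that do not. The capitals mark the codon before the last amino acid codon.
Ighm (chr12:113420867-113420929, minus strand): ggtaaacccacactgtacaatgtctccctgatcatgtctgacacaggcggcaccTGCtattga
Igha (chr12:113258768-113258830, minus strand): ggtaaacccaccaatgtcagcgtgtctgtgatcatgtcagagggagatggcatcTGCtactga
Ighg2b (chr12:113306389-113306451, minus strand): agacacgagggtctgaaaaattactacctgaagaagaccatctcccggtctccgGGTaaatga
Ighg2c (chr12:113287389-113287451, minus strand): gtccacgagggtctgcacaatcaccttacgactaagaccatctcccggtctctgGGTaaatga
Ighd (chr12:113409578-113409640, minus strand): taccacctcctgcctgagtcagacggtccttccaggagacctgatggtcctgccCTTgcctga
IgM and IgA end in a tailpiece with a cysteine codon at this place, the residue through which the J chain is attached, whereas the IgG and IgD ends hold another codon there. The deposited values are 1 per gene, so the secreted forms and the membrane forms with their additional exons cannot be told apart. The coding sequences of secreted Ighg2b and Ighg2c are 85.8% identical, with a longest identical run of 78 bases, and those of the other IgG pairs 74.2% to 76.4%. How reads shared between such copies were counted is not given, so the division among IgG subclasses is uncertain.

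The values are FPKM, fragments scaled to transcript length and to the mapped fragments of the library, and read totals are not given with them, so the depth behind a value is unknown. An FPKM of 1 or more was listed for 12231 to 12590 genes per library. Ltf, the lactoferrin gene, had an FPKM of 0.104 and 0.533 in KO lungs and 79.2 and 7.32 in WT lungs. The 4 Y-linked genes Eif2s3y, Ddx3y, Uty and Kdm5d summed to 44.1 and 39.0 in KO lungs and to 0.0426 and 0 in WT lungs, against labels that call all 4 mice male. For every value below, a difference by genotype and one by Y-linked transcripts cannot be told apart. Lung epithelial markers were abundant in every library, with 6 of them summing to between 22504 and 27513 in the knockout and to 27538 and 28111 in wild type. Knockout mouse 2 stood apart in Scgb1a1, the club cell secretoglobin, at 69980 FPKM in knockout mouse 1 and a listed 0 in knockout mouse 2, and at 72936 and 60454 in WT lungs. All FPKM of a library summed to 388799 and 317976 in KO lungs and to 400153 and 375543 in WT lungs, and without Scgb1a1 to 318818 and 317976 in KO lungs and 327216 and 315089 in WT lungs. Knockout mouse 2 differed as well in 8 alveolar macrophage markers, which summed to 84.3 there and 404 in knockout mouse 1, against 692 and 609 in WT lungs. The 6 melanocyte markers summed to 6.58 and 2.38 in KO lungs 1 and 2 and to 5.59 in wild-type mouse 1. Wild-type mouse 2 stood apart at 100, although the labels call its piece free of tumour. Whether that piece held melanoma cells was not tested. Red blood cell genes, 5 in number, summed to 1676 and 2413 in KO lungs and 1455 and 2310 in WT lungs. Tyr and Tyrp1 were listed at 0 in knockout mouse 2 and wild-type mouse 1. The part of these differences in the antibody values was not tested. Leaving out each mouse is given beside some of the results, and others without it also move.

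Antibody transcripts were lower in both knockout lungs, apart from IgD and IgG3, and apart from IgG2c after quantile normalization or rescaling without the other immunoglobulin segments. The KO mean was 0.217 of the WT mean for Ighm, 0.189 for Igha, 0.268 for Igkc and 0.148 for Jchain, and 1.14 of it for Ighd (n = 2 mice each). No member passed the threshold over all genes tested by limma, an adjusted p under 0.05. In whole tissue, fewer cells of a type and less RNA per cell cannot be told apart.

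Ighm, the first constant region used by every B cell, had an FPKM of 69.7 and 36.6 in knockout mice 1 and 2, against 224 and 266 in wild-type mice 1 and 2. Both knockout values lay well under both wild-type values, and the ratio of the means was 0.217. On the scale of log2(FPKM + 1) the difference was -2.25 (SE 0.33), with an adjusted p of 0.641 by limma, the smallest of the 10 genes. Leaving out each mouse in turn gave between -2.71 and -1.79.

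Ighd, the partner of IgM on naive B cells, had an FPKM of 26.6 and 10.9 in KO lungs and 14.3 and 18.5 in WT lungs. The highest and the lowest value were both from the knockout, so the groups overlapped. The log2 difference was 0.07 (SE 0.43, adjusted p = 0.990 by limma), and its sign turned without knockout mouse 1 (-0.53) or wild-type mouse 1 (-0.10).

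Igha, the mucosal isotype, had an FPKM of 17.4 and 42.8 in KO lungs and 59.8 and 259 in WT lungs. The groups did not overlap, but WT lungs were themselves far apart, with a mean of 30.1 ± 18.0 in the knockout and 159 ± 141 in wild type (SD, n = 2 each). The log2 difference was -2.15 (SE 0.81, adjusted p = 0.890 by limma), or -1.10 with WT mouse 2 left out and -3.20 with WT mouse 1 left out. Jchain, whose product joins IgA and IgM, had 10.6 and 20.2 in KO lungs and 53.5 and 155 in WT lungs. Its order over the 4 mice was that of Igha, lowest in knockout mouse 1 and highest in wild-type mouse 2. Ighg2c, Igkc and Mzb1 had the same order, and Ighm did not. The log2 difference of Jchain was -2.56 (SE 0.59, adjusted p = 0.890 by limma) and lay between -3.32 and -1.80 with any mouse left out. Among 12573 genes tested, Jchain was number 27 in order of log2 difference from the lowest.

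The IgG constant regions were low in every lung, except for Ighg2c in wild-type mouse 2. Ighg2c, which C57BL/6 mice carry in place of Ighg2a, had an FPKM of 0.770 and 3.84 in KO lungs and 4.12 and 55.8 in WT lungs. For Ighg2c, wild-type mouse 2 was far above the others, while knockout mouse 2 was close to wild-type mouse 1. The log2 difference of -2.54 (SE 1.24, adjusted p = 0.890 by limma) was -0.81 without wild-type mouse 2. Ighg2b had 1.25 and 2.06 in KO lungs and 5.79 and 4.40 in WT lungs, groups that stood clear of each other (log2 difference -1.21, SE 0.22, adjusted p = 0.789 by limma). Ighg1 had 0.337 and 1.42 in KO lungs and 2.00 and 1.78 in WT lungs. Ighg3 had 0.256 and 1.10 in KO lungs and 4.32 and 0.929 in WT lungs, and its groups overlapped. At such levels the scale of log2(FPKM + 1) understates a fold, and the log2 differences were -0.68 for Ighg1 and -0.98 for Ighg3 (SE 0.32 and 0.56).

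Igkc, shared by most mouse antibodies whatever their isotype, was the most abundant of the 10 in every library. It had an FPKM of 254 and 327 in KO lungs and 704 and 1470 in WT lungs, a ratio of means of 0.268. In order of FPKM it was gene 124 and 94 in the knockout libraries and gene 36 and 14 in the wild-type libraries. The log2 difference was -1.81 (SE 0.41, adjusted p = 0.890 by limma), between -2.35 and -1.28 with any mouse left out. The lambda constant regions, which are no members of the group, differed among themselves. Iglc1 had 5.14 and 16.6 in KO lungs and 42.0 and 240 in WT lungs, a log2 difference of -3.29 (SE 0.96). Iglc2 had 11.1 and 5.79 in KO lungs and 17.2 and 20.3 in WT lungs. Iglc3 had 24.4 and 11.1 in KO lungs and 24.0 and 23.3 in WT lungs, with overlapping groups. The coding sequences of Iglc2 and Iglc3 are 96.2% identical, which leaves their separate values uncertain, and Iglc1 is 73.3% and 74.1% identical to them. Ighe, the IgE constant region, was at 0 and 0.303 in KO lungs and at 0 and 0.0484 in WT lungs. Iglc4 was at 0.446 in knockout mouse 1 and listed at 0 in the other 3 libraries. Of the surrogate light chain genes of B cell precursors, Vpreb3, which B cells also express, had 13.9 and 17.7 in KO lungs and 15.7 and 12.4 in WT lungs. Vpreb1 had 0.297 and 1.12 in KO lungs and 0.590 and 0.257 in WT lungs, Igll1 was listed above 0 only in wild-type mouse 1 (0.113), and Vpreb2 was listed at 0 throughout.

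Mzb1, on chromosome 18, had an FPKM of 4.24 and 4.90 in KO lungs and 7.72 and 9.37 in WT lungs. The mice of each genotype were close together and the groups did not overlap, with a ratio of means of 0.535. The log2 difference was -0.77 (SE 0.15, adjusted p = 0.855 by limma), between -0.90 and -0.65 with any mouse left out.

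**Figure D1:**
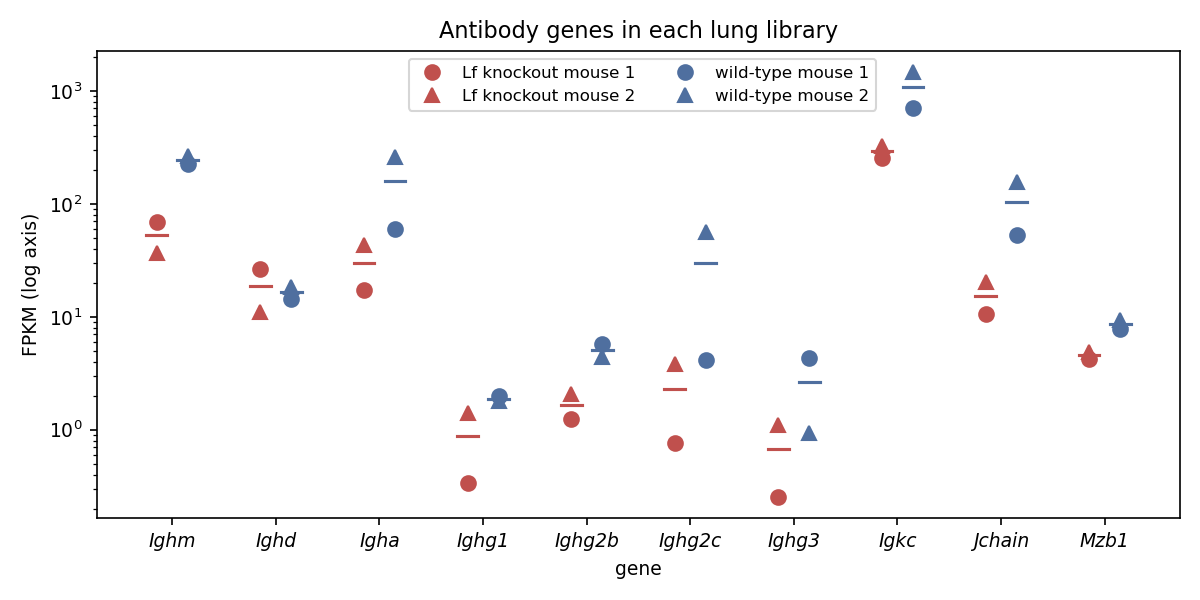
FPKM on a log axis for each of the 10 genes, with Lf knockout mice in red on the left and wild-type mice in blue on the right of each gene; circles are mouse 1, triangles mouse 2 and bars the mean of 2 mice. Both knockout mice lie below both wild-type mice for 8 genes, while Ighd and Ighg3 overlap.

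All 10 genes passed the filter on low values, which asked for 2 or more libraries with an FPKM of 1 or more. A log2 difference below 0 was found for 9 of the 10, beside 51.2% of all genes tested. Each KO value was under each WT value for 8 of the 10, beside 17.5% of all genes in this order and 18.5% in the opposite one. For 7 of these 8 the mean was also 2-fold or more lower, beside 1.56% of all genes lower and 0.294% higher by this rule. At an unadjusted p under 0.05 by limma 6 of the 10 were lower and none higher, beside 2.56% and 2.55% of all genes. At an adjusted p under 0.05, where 0.00795% of all genes were lower and 0.0159% higher, none of the 10 passed. The genes higher by this rule were the Y-linked Eif2s3y and Ddx3y. The median log2 difference of the 10 was -1.51, beside -0.005 over all genes. Genes transcribed in the same cells are not independent of each other, and the members were chosen with earlier results of these data known. These counts therefore describe the group and are not a test of it.

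**Figure D2:**
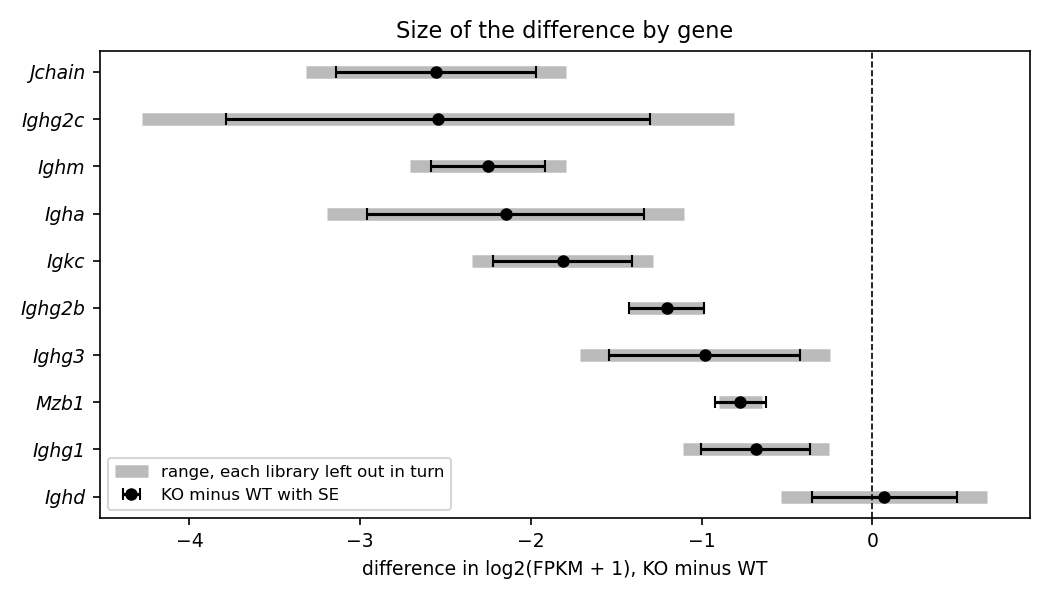
Difference in log2(FPKM + 1), knockout minus wild type, for each gene, with black points and bars for the estimate and its SE from limma and grey bars for the range when each of the 4 libraries is left out in turn, with the genes kept that passed the filter over all 4. The range stays below 0 for 9 genes, is widest for Ighg2c (-4.28 to -0.81) and crosses 0 for Ighd. For the 8 genes whose groups do not overlap, leaving out a library cannot change the sign.

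As shares of all heavy chains, IgM, IgA and IgG differed more between mice of a genotype than between genotypes, and IgD did not. The 7 heavy chain constant regions summed to 116 and 98.7 FPKM in KO lungs and to 315 and 606 in WT lungs, a geometric ratio of 0.245, or 0.340 with WT mouse 2 left out and 0.177 with WT mouse 1 left out. Each share below is the FPKM of an isotype divided by this sum within a library, so it does not depend on how libraries were scaled. IgM made up 59.9% and 37.0% in knockout mice 1 and 2, and 71.3% and 43.9% in wild-type mice 1 and 2. The difference of -9.07 percentage points turned to 2.39 without knockout mouse 2 and to 4.64 without wild-type mouse 1. IgA made up 14.9% and 43.3% in KO lungs and 19.0% and 42.7% in WT lungs. Each genotype thus had a lung rich in IgM and a lung with similar shares of IgM and IgA. The mean IgA share was 29.1% ± 20.1 in the knockout and 30.9% ± 16.8 in wild type (SD, n = 2 each), a difference of -1.73 percentage points. The sign of this difference turned without knockout mouse 1 (12.5) or wild-type mouse 2 (10.1). With Ighm left out of the sum the IgA share was 37.3% and 68.8% in KO lungs and 66.2% and 76.1% in WT lungs, a difference of -18.1 percentage points with overlapping groups. IgG made up 2.25% and 8.52% in KO lungs and 5.16% and 10.4% in WT lungs, again with overlap. With Ighm left out of the sum the IgG share was 5.62% and 13.5% in KO lungs and 17.95% and 18.5% in WT lungs, without overlap.

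IgD was the isotype whose share of the full sum did not overlap. It made up 22.9% and 11.1% of the sum in KO lungs and 4.56% and 3.05% in WT lungs, a difference of 13.2 percentage points that lay between 7.29 and 19.1 with any mouse left out. With 2 mice in each group, the smallest p of a two-sided exact permutation test is 1 in 3, and the test gave this value for the IgD share and for the heavy chain sum. The p was 0.667 for IgM and IgG and 1 for IgA by the same exact permutation test. Adjusted over the 7 sums, shares and ratios tested in this way, all were 0.933 or 1.

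Within IgG, Ighg2c made up 29.4% and 45.6% of the summed FPKM in KO lungs, and 25.4% and 88.7% in WT lungs. In knockout mouse 1 and wild-type mouse 1 the leading subclass was Ighg2b, with 47.9% and 35.6%. Of the 4 subclasses only the share of Ighg1 did not overlap between genotypes, and narrowly. It was 12.9% and 16.8% in KO lungs and 12.3% and 2.83% in WT lungs.

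**Figure D3:**
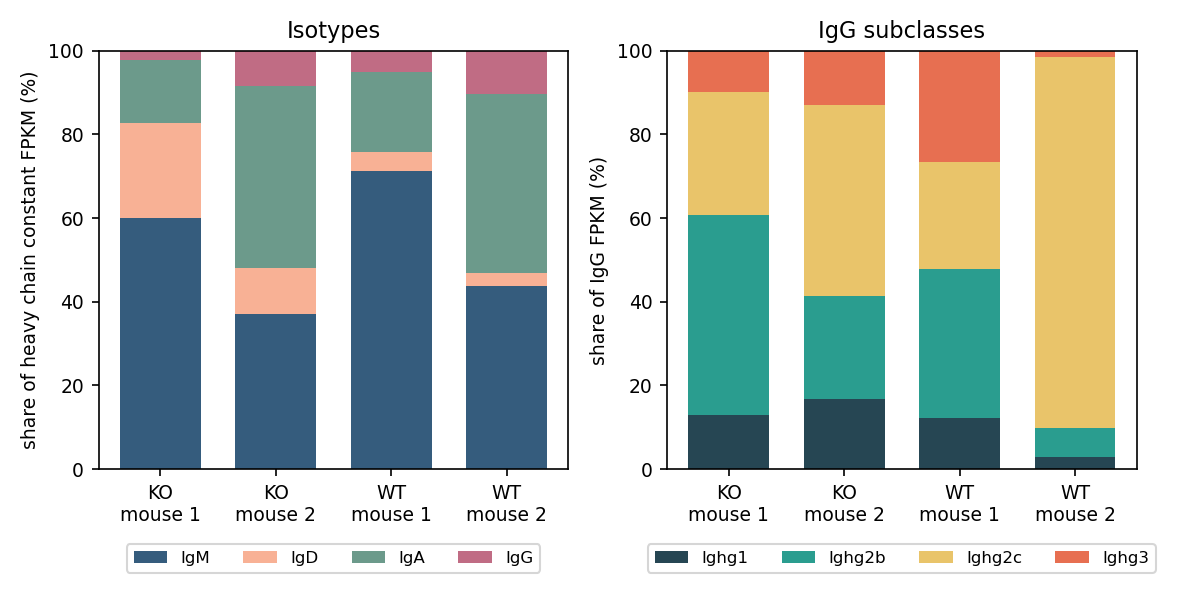
Left, share of each isotype in the summed FPKM of 7 heavy chain constant regions; right, share of each subclass in the summed IgG FPKM; bars are single libraries, knockout mice before wild-type mice. The IgD share is 22.9% and 11.1% in KO lungs against 4.56% and 3.05% in wild type, and Ighg2c fills 88.7% of IgG in wild-type mouse 2.

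Ratios between members showed the contrast between IgM and IgD more closely than their levels did. The ratios that follow, of Ighd to Ighm and to Cd79b, were chosen after the values were seen and have no test. Ighd stood at 0.382 and 0.299 of Ighm in KO lungs and at 0.0640 and 0.0696 in WT lungs. The geometric ratio between genotypes was 5.07, and lay between 4.49 and 5.72 with any mouse left out. Per Cd79b, a signalling chain of the B cell receptor, Ighm measured 2.30 and 2.67 in KO lungs and 10.7 and 10.6 in WT lungs. Within a genotype the mice nearly coincided, although Cd79b itself was at 30.3 and 13.7 in KO lungs and 21.0 and 25.1 in WT lungs. Ighd per Cd79b measured 0.878 and 0.799 in KO lungs and 0.684 and 0.738 in WT lungs, a geometric ratio of 1.18. Measured against this B cell gene, Ighm was thus lower in both knockout lungs and Ighd was not.

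The secretion genes kept no fixed proportion to the heavy chains. Jchain stood at 0.0912 and 0.205 of the heavy chain sum in KO lungs and at 0.170 and 0.256 in WT lungs, with overlap (exact permutation p = 0.667). The ratios without a p in this paragraph were chosen after the values were seen. Relative to the 2 isotypes that it joins, Ighm plus Igha, Jchain stood at 0.122 and 0.255 in KO lungs and at 0.188 and 0.296 in WT lungs. Igkc stood at 2.19 and 3.32 times the heavy chain sum in KO lungs and at 2.24 and 2.43 times in WT lungs (exact permutation p = 1). Kappa made up 86.2% and 90.7% of the light chain constant FPKM (Igkc with Iglc1, Iglc2 and Iglc3) in KO lungs and 89.4% and 83.8% in WT lungs. Mzb1 was nearer to wild type than the heavy chains were, at 0.0365 and 0.0497 of their sum in KO lungs and 0.0245 and 0.0155 in WT lungs.

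**Figure D4:**
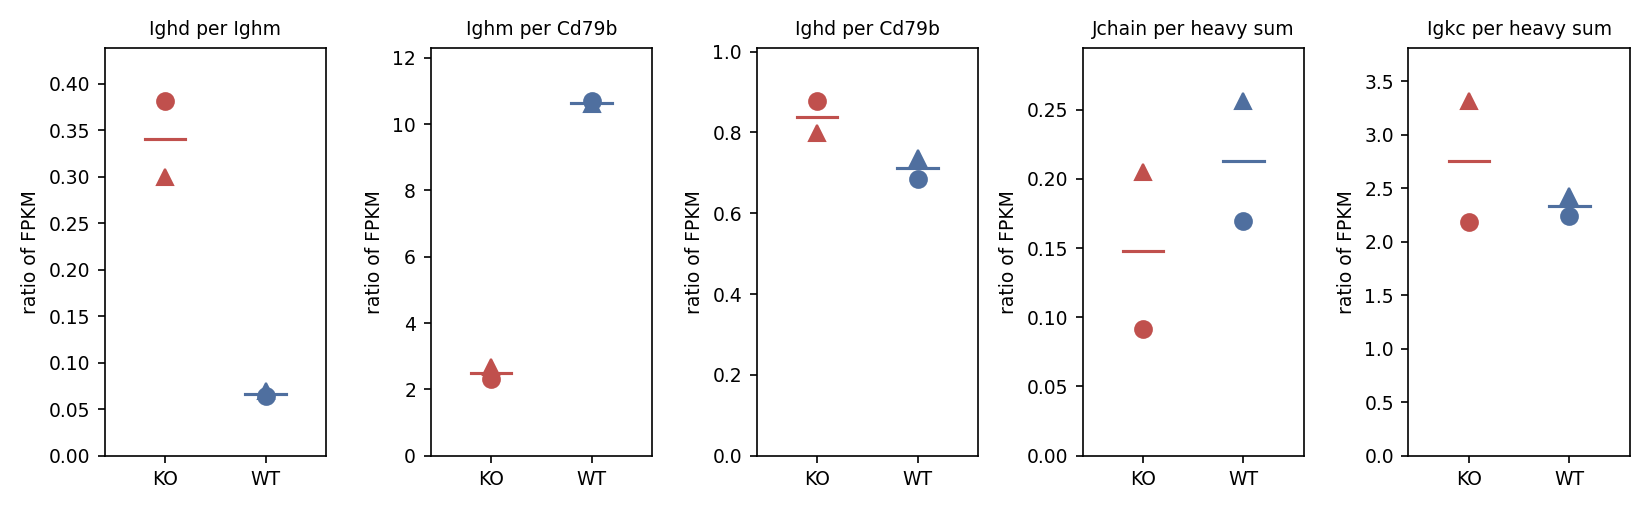
Ratios of FPKM within each library, knockout on the left and wild type on the right of each panel; circles are mouse 1, triangles mouse 2, bars the mean of 2 mice, and the heavy sum is that of 7 constant regions. Ighd per Ighm and Ighm per Cd79b separate the genotypes by far more than the distance between mice, and the ratios of Jchain and Igkc to the heavy chain sum overlap.

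Of 15 tested genes of plasma cell identity, 10 had a log2 difference below 0 and 5 above it, with a median of -0.14. Without overlap 4 were lower, a share of 26.7% beside 17.5% of all genes, and 2 were higher, beside 18.5% of all genes. Derl3, a factor of endoplasmic reticulum degradation that is high in plasma cells, had an FPKM of 0.737 and 1.36 in KO lungs and 2.43 and 2.23 in WT lungs. Pou2af1, a B cell coactivator of immunoglobulin transcription, had 6.16 and 3.70 in KO lungs and 6.996 and 8.65 in WT lungs. Slamf7, a surface receptor of plasma cells and other leukocytes, had 0.832 and 0.605 in KO lungs and 1.26 and 2.38 in WT lungs. Prdm1, the transcription factor that drives plasma cell formation, was in the opposite order, with 4.01 and 2.85 in KO lungs and 2.78 and 2.64 in WT lungs. Ly6k also lay higher, with 2.73 and 1.82 in KO lungs and 1.69 and 1.41 in WT lungs. Sdc1, which lung epithelium expresses as well, had 81.2 and 86.3 in KO lungs and 87.8 and 73.2 in WT lungs. Xbp1 had 67.0 and 82.9 in KO lungs and 83.2 and 79.7 in WT lungs, with overlap. Irf4 had 2.37 and 0.974 in KO lungs and 2.18 and 2.75 in WT lungs, with overlap. Tnfrsf17, too low to pass the filter, had 0.473 and 0.372 in KO lungs and 0.0658 and 0.172 in WT lungs.

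Of 33 genes of protein folding and export in the endoplasmic reticulum, which all secreting cells use, 28 were lower and 5 higher. Without overlap 18 lay lower, a share of 54.5% beside 17.5% of all genes, and 1 lay higher, beside 18.5% of all genes. The differences were small, with a median of -0.23 on the log2 scale. The chaperone gene Pdia4 had 48.2 and 44.8 in KO lungs and 65.0 and 55.9 in WT lungs. Dnajb9, a cochaperone, had 31.5 and 25.4 in KO lungs and 36.4 and 41.4 in WT lungs. Hyou1, another chaperone of the same compartment, had 27.8 and 32.5 in KO lungs and 39.8 and 37.1 in WT lungs. Spcs3, a signal peptidase subunit, had 21.1 and 21.7 in KO lungs and 26.6 and 27.0 in WT lungs. None of the 33 passed by limma (smallest adjusted p = 0.890).

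All 20 tested B cell identity genes had a log2 difference below 0 (median -0.22), but 2 of 20 lay lower without overlap, a share of 10.0% that is under the 17.5% of all genes. Their median was -0.69 when knockout mouse 1 was left out and 0.18 when knockout mouse 2 was. In sum the 22 listed genes reached 184 and 87.9 FPKM in KO lungs and 132 and 175 in WT lungs, so that knockout mouse 1 had the highest B cell sum of the 4 lungs together with the lowest Jchain, Igha and IgG. Spib had 6.29 and 4.20 in KO lungs and 7.08 and 6.63 in WT lungs, and Bach2 had 2.22 and 2.00 in KO lungs and 2.41 and 2.88 in WT lungs; both are B cell transcription factors. Ly6d had 24.9 and 18.7 in KO lungs and 24.1 and 30.0 in WT lungs, with overlap. Fcrla had 5.09 and 2.20 in KO lungs and 3.83 and 6.92 in WT lungs, also with overlap. Cd79a, the partner of Cd79b, had 23.8 and 10.0 in KO lungs and 14.03 and 20.1 in WT lungs.

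Of 9 tested antibody receptors and transport genes 8 were lower, 4 without overlap, a share of 44.4% beside 17.5% of all genes (median -0.42). Pigr, which carries IgA and IgM with their J chain across epithelium, had 14.1 and 22.9 in KO lungs and 55.4 and 23.9 in WT lungs, so knockout mouse 2 and wild-type mouse 2 nearly met. Besides Pigr, the genes of this list lower without overlap were 3 Fc gamma receptor genes, already counted in the 44.4% above. Fcgr2b had 3.71 and 2.49 in KO lungs and 6.70 and 7.33 in WT lungs, Fcgr3 had 14.2 and 10.3 in KO lungs and 20.6 and 28.6 in WT lungs, and Fcgr4 had 5.35 and 3.33 in KO lungs and 8.44 and 16.7 in WT lungs. Fcgr1 had 2.29 and 0.843 in KO lungs and 2.01 and 2.60 in WT lungs, with overlap. Macrophages also express these receptors. The alveolar macrophage markers given above were lower in sum in both knockout lungs. Of these 8 markers 4 were lower without overlap, a share of 50% beside 17.5% of all genes. The part of macrophages in the receptor values was not tested. Among 8 tested signals of B cell survival and homing 6 were lower and 2 higher, beside 51.2% of all genes lower. Without overlap 2 were lower, a share of 25% beside 17.5% of all genes, and 1 was higher, beside 18.5%. The median of these signals was -0.23, or -0.61 without knockout mouse 1 and -0.003 without knockout mouse 2. Cxcl13, which draws B cells to follicles, had 3.45 and 1.75 in KO lungs and 8.74 and 5.20 in WT lungs. Ccl21a had 85.1 and 18.0 in KO lungs and 97.9 and 107 in WT lungs. A list of 8 lymph node and follicle markers held Cxcl13 and Ccl21a, and also Ltb and the B cell gene Fcer2a. It summed to 131 and 43.7 in KO lungs and to 139 and 145 in WT lungs. Ltb alone had 33.0 and 21.7 in KO lungs and 25.6 and 23.7 in WT lungs, with overlap. Cd40, the receptor for T cell help, was in the opposite order, with 4.23 and 4.26 in KO lungs and 2.54 and 2.92 in WT lungs (log2 difference 0.49, SE 0.13, adjusted p = 0.890 by limma). The 7 T cell markers present in the files summed to 32.04 and 18.8 in KO lungs and to 30.6 and 36.9 in WT lungs.

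**Figure D5:**
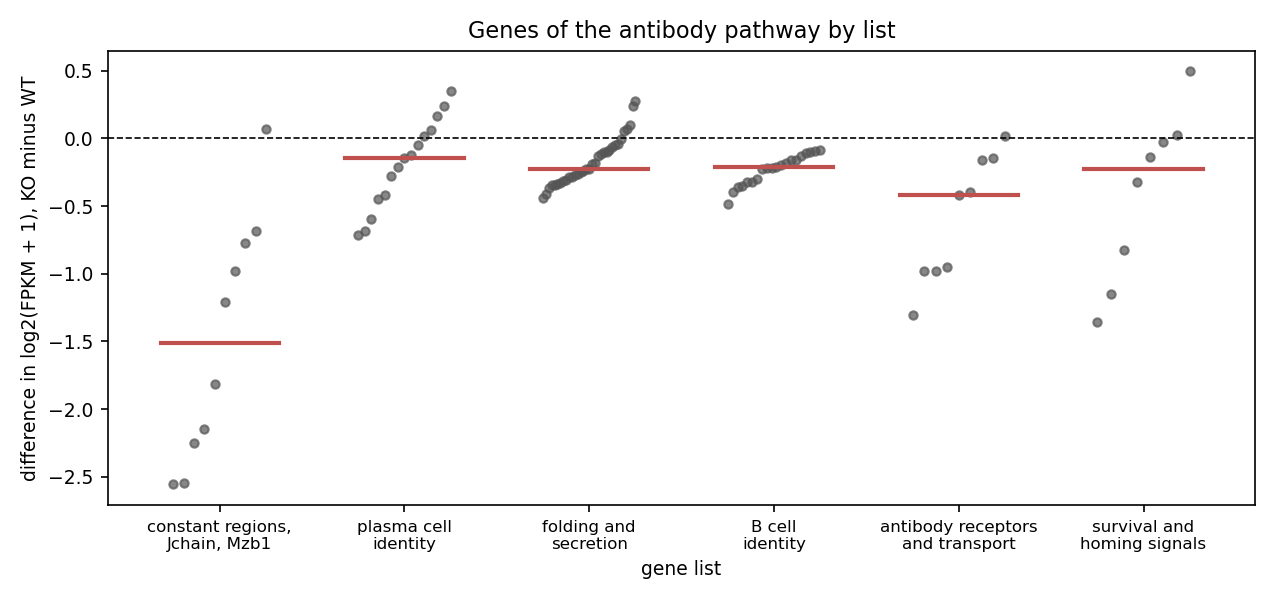
Difference in log2(FPKM + 1), knockout minus wild type, for every tested gene of 6 lists, with a red bar at each list's median; points are spread sideways in order of value. The 10 antibody genes have a median of -1.51, and the medians of the other lists drawn lie between -0.42 and -0.14. Among lists not drawn, the median was -1.33 for alveolar macrophage markers, -1.71 for melanocyte markers and -0.82 for lymph node and follicle markers. It was -0.35 for T cell markers, -0.22 for lung epithelial markers and -0.08 for red blood cell markers.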

How the data were processed

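Lung RNA of 2 Lf knockout and 2 wild-type mice was analysed from the FPKM values the authors deposited, each library with 1 value for a symbol. The submitters' processing notes name TopHat, Cufflinks, HTSeq, DESeq and GRCm38, with no version or role; for annotation, read length and strand the notes used here say nothing. The 46 extra rows of 39 repeated symbols were summed; none was a member. Relative depth, from ratios of values up to 0.3 FPKM, was 0.973 for knockout library 1 and 1.12 for wild-type library 2 times that of wild-type library 1; knockout library 2 gave no clear step.

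The 12573 genes with 2 or more libraries at an FPKM of 1 or more were fitted as log2(FPKM + 1) with limma 3.58.1 in R 4.3.3 (trend, genotype alone, 2 residual and 2.62 prior degrees of freedom), with Benjamini-Hochberg adjustment over all genes. The fit was tested on simulated data. Shares and ratios used an exact permutation test (scipy 1.17.1). Positions and transcript sequences came from GENCODE vM21. Genes named are all members, up to 4 genes of smallest p per list, the other constant and surrogate chains, Ltf and the Y-linked genes. Others (Prdm1, Sdc1, Xbp1, Irf4, Tnfrsf17, Cd79a, Cd79b, Fcgr1, Ltb, Scgb1a1, Tyr, Tyrp1) were chosen after their values were seen. Members and lists were chosen with earlier results of these data known. Tried besides were a pseudocount of 0.1 or 0.5, all genes unfiltered, a mean of 5 or more, 3 scalings, a constant prior variance, the mouse number as a block, other denominators and leaving out each library.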

Additional observations from a re-analysis of the deposited data

How the results depend on the processing

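No member passed the threshold in any of the alternatives run, with a smallest adjusted p of 0.136 for Ighm by limma, and 9 of the 10 had a log2 difference below 0 in each alternative that gave them a value. A mean FPKM of at least 5 removed Ighg1, Ighg2b and Ighg3, and Ighg3 also failed the filter without knockout mouse 2 or wild-type mouse 1. With the filter of all 4 libraries kept, an alternative added after seeing the data, Ighg3 lay between -1.71 and -0.25. Ighd turned to -0.53 without knockout mouse 1 and to -0.10 without wild-type mouse 1, within a range of -0.53 to 0.67 with a mouse left out. The count of 8 members lower without overlap was 7 after quantile normalization and after rescaling without the other immunoglobulin segments. Ighg2c overlapped in both. With a mouse left out the count was 8 or 9, but leaving out a mouse cannot lower it. That rescaling moved the median of all genes to 0.11. The members' median log2 difference lay between -1.69 and -1.19 with a mouse left out and all 10 kept, and reached -2.35 without wild-type mouse 1 where Ighg3 dropped out. Of the 3 genes past the threshold over all genes, 2 were Y-linked, and the count became 0 with no filter and 0 with the replicate block. With Ighm left out of the sum, the IgA share difference was -18.1, the IgG share difference -8.65 and the IgD share difference 26.7 percentage points, by the smaller denominator. The mouse numbers name separate animals; deviations of same-numbered mice correlated at -0.34 over genes. Each mouse number occurs once in each genotype, so the block cannot change an estimate. The members' median of -1.51 and the IgD share difference of 13.2 were therefore bound to stay. FPKM give no counts, so the precision of low genes such as Ighg1 and Ighg3 cannot be stated.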
